A study of Mus musculus with 14 samples.

Results

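The BCL2 family of apoptosis regulators was examined in multipotent progenitors (MPP) of young and old mouse bone marrow. The family was taken as 10 genes chosen by symbol: the pro-survival members Bcl2, Bcl2l1 and Mcl1, the effectors Bax and Bak1, and the BH3-only members Bcl2l11, Bbc3, Pmaip1, Bid and Bad. Of these 10 genes, 9 were measured, 3 pro-survival and 6 pro-death, among 19155 genes in all. No probe set was listed for Bax, which was therefore not analysed here. Each of the other 9 had 1 probe set.

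BCL2 family proteins decide whether the outer mitochondrial membrane stays intact. BAX and BAK1 form pores in it and release cytochrome c, pro-survival members hold BAX and BAK1 and the BH3-only proteins in check, and BH3-only proteins relay stress signals by binding the pro-survival members or activating the effectors. In blood progenitors MCL1 and BCL2 are known survival factors, and much of the family's control lies in protein turnover, phosphorylation and cleavage, which an RNA array does not measure.

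All 14 arrays carried RNA of wild-type C57BL/6 mice, 20000 bone marrow cells sorted per array after cKit enrichment, and no mouse was treated. Both populations were Lin-, cKit+ and Sca-1+. MPP4, which is lymphoid-biased, was sorted as Flk2+ (Flk2 is the product of Flt3), and MPP3, which is myeloid-biased, lacked Flk2 and CD150 and carried CD48. MPP3 came on 3 young and 3 old arrays and MPP4 on 5 young and 3 old ones, with young mice of 8 to 10 weeks and old mice of 24 months. Dead cells were gated out with propidium iodide, so the arrays sampled cells that were viable at the sort. The study's methods describe the replicates as independent biological ones, and the labels did not say how many mice each array drew on. The young arrays also belong to an earlier series, so age and series cannot be told apart in the age comparisons.

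Each deposited value is a rank-based score, the negative natural log of the fraction of the array's probe sets that rank as high or higher. A higher value is a higher rank, differences are given in these units and never as folds, and 1 gene's level is not set against another's. The median value per array lay between 0.662 and 0.675. Flt3 averaged 3.12 ± 0.34 (SD, n = 5) in young MPP4 and 3.40 ± 0.12 (SD, n = 3) in old MPP4, against 1.79 ± 0.34 (SD, n = 3) in old MPP3 and 2.13 ± 0.10 (SD, n = 3) in the young. Every MPP4 array thus lay above every MPP3 array for the gene that the gate selects on. Kit averaged 2.87 to 3.07 over the 4 groups, Cd48 2.30 to 2.62 and Slamf1 0.115 to 0.190. Ly6a, which encodes Sca-1, was not measured. The 14 arrays fell into 2 sets by the pattern of the dimmest 33.3% of genes. Array set 2 consisted of young arrays only (replicates 2 and 3 of MPP3 and replicates 3, 4 and 5 of MPP4), and array set 1 of the other 3 young arrays together with the 6 old ones. Xist exceeded 1 on 4 young arrays (MPP4 replicates 1, 4 and 5 and MPP3 replicate 1) and on no old array, while the labels gave no sex.

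The DNA before the start of 2 members is shown: Bcl2l11, whose highest and lowest groups did not overlap, and Bak1, whose values differed between the array sets. Capitals mark matches to 5 motifs, searched on both strands: the GC box GGGCGG, the CCAAT box CCAAT, the TATA box TATAAA, the cyclic AMP response element TGACGTCA and the forkhead motif GTAAACA (read by FOXO factors among others). Each sequence is the 250 bases 5′ of a RefSeq start on GRCm38.p6, for Bcl2l11 (the first of 2 starts) at chr2:128125788-128126037 on the plus strand and for Bak1 at chr17:27028628-27028877 on the minus strand.
Bcl2l11: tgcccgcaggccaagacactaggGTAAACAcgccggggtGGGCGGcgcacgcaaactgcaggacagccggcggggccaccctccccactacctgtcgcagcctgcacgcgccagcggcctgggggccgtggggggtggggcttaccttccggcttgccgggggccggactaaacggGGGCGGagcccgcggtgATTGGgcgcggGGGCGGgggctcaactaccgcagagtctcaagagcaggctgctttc
Bak1: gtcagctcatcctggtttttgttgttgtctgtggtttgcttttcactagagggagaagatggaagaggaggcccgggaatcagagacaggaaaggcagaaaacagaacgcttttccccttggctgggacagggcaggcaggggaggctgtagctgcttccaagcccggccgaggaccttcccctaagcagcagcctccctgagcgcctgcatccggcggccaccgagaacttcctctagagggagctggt

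The Bcl2l11 window was 72.0% G or C and held 3 GC boxes, 1 CCAAT box and 1 forkhead motif. The window before its second start was 73.2% G or C and held 2 GC boxes, 2 CCAAT boxes and no forkhead motif. The Bak1 window was 58.4% G or C and held none of the 5 motifs. Over all 32851 upstream windows of this length the median was 52.4% G or C, and 32.7% held a GC box, 33.8% a CCAAT box, 12.4% a TATA box, 1.55% a cyclic AMP response element and 3.17% the forkhead motif. The window before the Mcl1 start was 64.4% G or C with 1 GC box, and that before the Bcl2 start was 74.8% G or C with 7. A match describes the letters of a window and says nothing of binding in these cells.

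In these units Mcl1, which encodes a short-lived pro-survival protein, had the widest range of group means of the 9 genes, 0.286. The score stretches high ranks, so this range does not place Mcl1 above the other genes. As a share of probe sets at or above the mean, Mcl1 ran from 3.87% to 5.16% and Bcl2l11 from 50.8% to 64.7%. On probe set 10494306 the Mcl1 values were 3.15, 2.86 and 2.97 in young MPP3 and 3.01, 2.79 and 3.10 in old MPP3. In young MPP4 they were 3.25, 3.04, 3.43, 3.26 and 3.28, and in old MPP4 3.09, 3.08 and 3.09. Young MPP4 had the highest mean, followed by old MPP4, young MPP3 and old MPP3, and the arrays of each neighbouring pair in this order overlapped, as did those of the first and the last. The 3 old MPP4 arrays lay within 0.01 of each other.

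Bcl2, the founding pro-survival member (probe set 10357043), had group means from 1.65 ± 0.20 (SD, n = 3) in old MPP3 to 1.83 ± 0.11 (SD, n = 3) in old MPP4. The old MPP3 arrays read 1.85, 1.44 and 1.67, so that 1 group held both the lowest value of all 14 arrays and the second highest.

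Bcl2l1, which encodes the pro-survival BCL-XL and can also yield a pro-death short form that 1 probe set does not separate, read 0.917, 1.23 and 1.00 in young MPP3 and 1.13, 1.16 and 0.991 in old MPP3 (probe set 10488655). In young MPP4 it read 0.937, 0.897, 1.30, 1.25 and 1.22, and in old MPP4 0.704, 0.959 and 0.915. Young MPP4 thus split into 2 low and 3 high arrays, and the high arrays were those of array set 2. Old MPP4 had the lowest mean, 0.859 ± 0.14 (SD, n = 3).

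Bak1, the measured pore-forming effector (probe set 10449303), read 1.26, 1.16 and 1.20 in young MPP3 and 1.21, 1.36 and 1.17 in old MPP3. In young MPP4 it read 1.24, 1.27, 0.933, 0.994 and 0.981, and in old MPP4 1.15, 1.18 and 1.10. Here too young MPP4 was split by array set, with the opposite sign to Bcl2l1: the 3 set 2 arrays were the lowest of all 14.

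Bcl2l11 encodes BIM, a BH3-only protein that binds every pro-survival member and can activate the effectors. Its values (probe set 10475866) were 0.541, 0.585 and 0.663 in young MPP3 and 0.572, 0.423 and 0.311 in old MPP3. They were 0.671, 0.532, 0.796, 0.671 and 0.709 in young MPP4 and 0.638, 0.748 and 0.647 in old MPP4. It was the only 1 of the 9 genes whose highest group, here old MPP4, and lowest group, here old MPP3, did not overlap, while each neighbouring pair in the order did. The highest and lowest groups were picked for each gene by its own means. The share of all genes with such a gap was not computed, so this does not set Bcl2l11 apart.

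The other 4 BH3-only genes had no separation between their highest and lowest groups. Bbc3, which encodes the p53-induced protein PUMA (probe set 10550290), had group means from 0.606 to 0.669, a range of 0.0627 against a pooled SD of 0.0761. Pmaip1, which encodes NOXA, a partner of MCL1 (probe set 10456357), had means from 0.747 in young MPP4 to 0.901 in old MPP3. Bid, which links death receptors to mitochondria once cleaved (probe set 10547531), had means from 0.758 in young MPP3 to 0.908 in old MPP3, where its arrays read 0.998, 1.11 and 0.619. Bad, whose product is held inactive by survival kinases (probe set 10461017), had means from 0.954 in old MPP4 to 1.11 in both young groups. In the order of group means, neighbours overlapped for each of the 4, and so did the first and the last. Apart from that order, every young MPP3 array lay below every old MPP4 array for Bid and above every one for Bad, groups that differ in both age and population. The share of all genes without overlap was not computed for this pair of groups, so nothing is read from it.

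**Figure D1:**
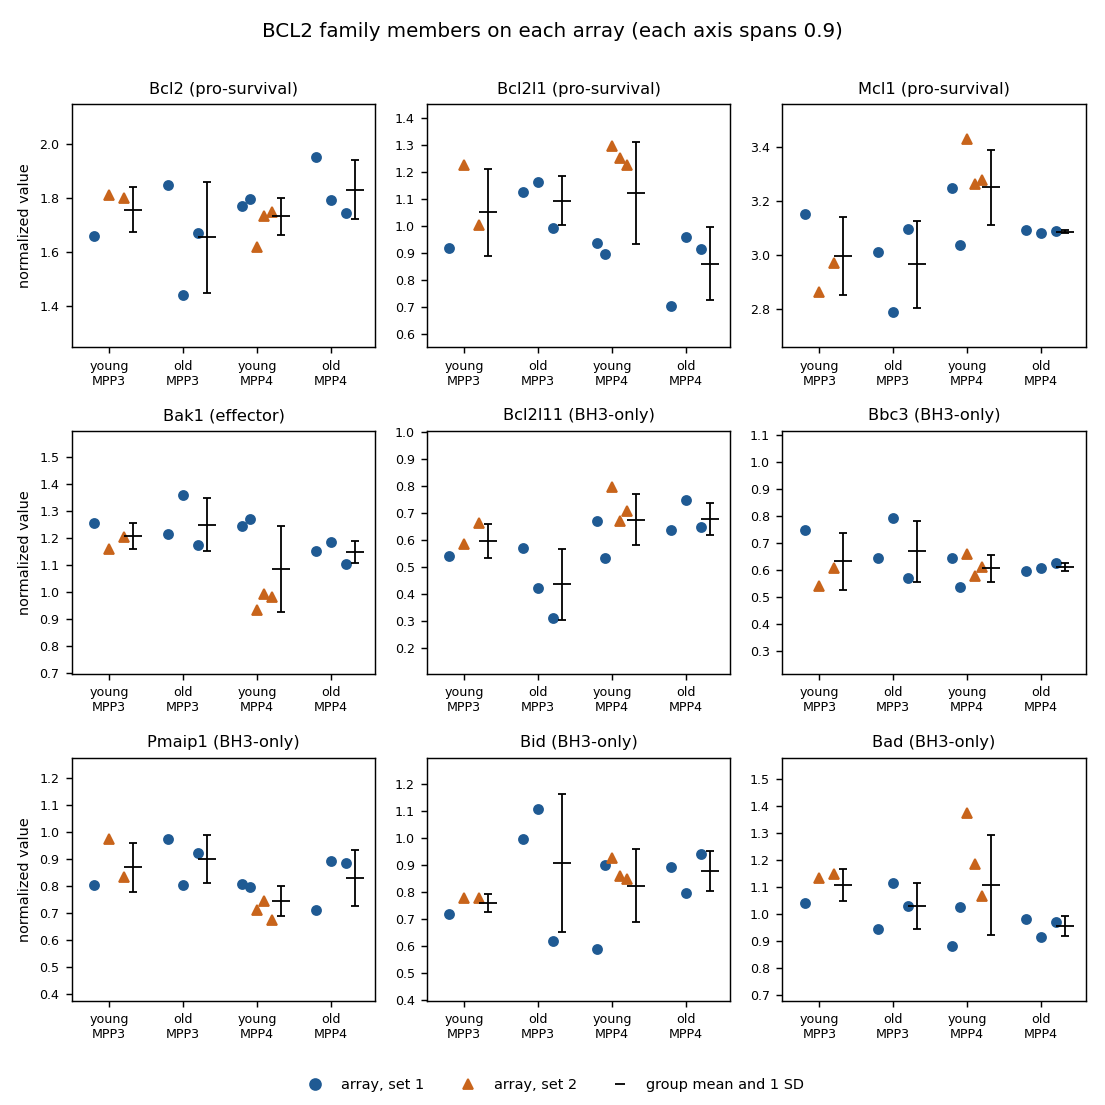
Normalized value (vertical axis, rank-based units) of the 9 measured BCL2 family genes on each of the 14 arrays, by group, with the group mean and 1 SD in black; circles are arrays of array set 1 and triangles of array set 2. The young MPP4 triangles lie apart from the circles for Bcl2l1 (1.22 to 1.30 against 0.897 and 0.937) and Bak1 (0.933 to 0.994 against 1.24 and 1.27).

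The first question was whether the family changed with age in MPP3. No member was called by limma (0 of 9, with 0% of all genes called), none had an unadjusted p under 0.05 (8.19% of all genes did), and a SAM-type statistic called 0 members and 0 genes. Young and old MPP3 overlapped for every member, whereas 14.2% of all genes had no overlap. Bcl2l11 had the lowest adjusted p, with a difference of -0.16 ± 0.076 (SE) and an adjusted p of 0.655 from limma. Bid had the highest difference, 0.15 ± 0.13 (SE), with an adjusted p of 0.791. The 95% intervals reached 0.141 to 0.332 to either side of the difference, so a difference smaller than that could not be told from 0.

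The members' median size of difference in MPP3, regardless of sign, was 0.0440, against 0.0578 over all genes. Elsewhere it was larger than over all genes: 0.0844 against 0.0425 for age in MPP4. For the difference between age differences it was 0.0967 against 0.0628. Between populations it was 0.0716 against 0.0480 in young mice and 0.103 against 0.0505 in old mice. These sizes were not tested. By role, 1 of 3 pro-survival and 4 of 6 pro-death genes had a higher mean in old MPP3. In old MPP4 the counts were 1 of 3 and 5 of 6. Against young MPP3 replicate 1, the only young array of set 1, the difference turned to -0.00598 for Bak1 and -0.0787 for Bbc3 and stood at 0.176 for Bcl2l1 and -0.186 for Mcl1. Old MPP3 replicate 2 had the lowest Bcl2 and Mcl1 and the highest Bak1, Bbc3 and Bid of the 14 arrays. That array also had the highest summed level of myeloid progenitor and neutrophil markers, 35.8, against 27.5 and 23.7 on the other old MPP3 arrays and 16.7 to 24.1 in young MPP3. Of the 15 markers, 14 had a higher mean in old MPP3, none passed the test and none was at 0 on any array. Their part in the members' values was not tested, and in RNA of whole sorted samples fewer cells of a type and less RNA per cell cannot be told apart.

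The second question was the same for MPP4. No member was called by limma (0 of 9, with 0% of all genes called), none had an unadjusted p under 0.05 (9.77% of all genes did) and none was without overlap between groups (7.29% of all genes were). The SAM-type statistic called 21 genes and 0 members. Bcl2l1 and Mcl1 had the smallest p-values, with differences of -0.26 ± 0.12 (SE, adjusted p 0.523 by limma) and -0.16 ± 0.077 (SE, adjusted p 0.533 by limma). Bad was at -0.15 ± 0.10 (SE) and Bcl2 at 0.099 ± 0.057 (SE). Bcl2l11 and Bbc3 differed by 0.0017 and 0.0038, with 95% intervals from -0.134 to 0.138 and from -0.0676 to 0.0752.

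The differences for Bcl2l1, Mcl1 and Bad were smaller in size against the young arrays of set 1 alone. Of the 5 young MPP4 arrays, 3 belonged to array set 2, and no old array did. The cause was not tested. Against the 2 young MPP4 arrays of set 1 alone, the old minus young difference was -0.0574 for Bcl2l1, -0.0563 for Mcl1 and 0.000764 for Bad, and for Bak1 it turned from 0.0617 to -0.111. Genes of the G2 and M phases of the cell cycle moved with the same groups: 14 of 14 had a higher mean in old MPP4, none passed the test, and their summed level was 30.4 to 32.8 there and 25.6 to 30.4 in young MPP4. Their part in the members' values was not tested.

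Whether age acted differently in MPP4 and MPP3 was tested as the difference between the age differences over all 14 arrays. No member was called (0 of 9, with 0% of all genes called by limma), and none had an unadjusted p under 0.05 (6.26% of all genes did). Bcl2l1 had the smallest p, with a term of -0.31 ± 0.16 (SE) and an adjusted p of 0.854, followed by Bcl2l11 at 0.16 ± 0.097 (SE, adjusted p 0.864 by limma) and Bcl2 at 0.20 ± 0.12 (SE, adjusted p 0.867 by limma).

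**Figure D2:**
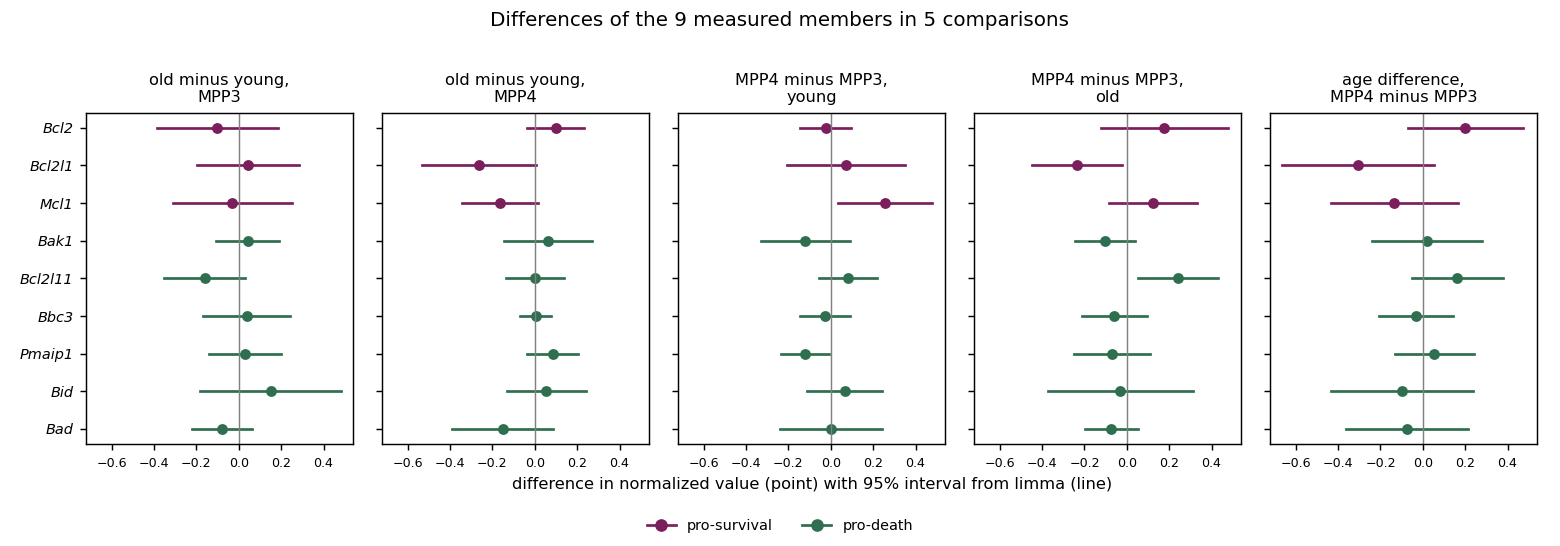
Difference in normalized value (horizontal axis) of each measured member in the 5 comparisons, with its 95% interval from limma; purple marks pro-survival and green pro-death genes. The intervals exclude 0 only for Mcl1 and Pmaip1 between young populations and for Bcl2l1 and Bcl2l11 between old populations, and none of the 45 differences passed the adjusted threshold.

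Between the populations of young mice, Mcl1 was at a mean of 3.25 ± 0.14 (SD, n = 5) in MPP4 and 3.00 ± 0.15 (SD, n = 3) in MPP3, and Pmaip1 at 0.747 ± 0.055 (SD, n = 5) and 0.870 ± 0.091 (SD, n = 3). The MPP4 minus MPP3 difference was 0.26 ± 0.095 (SE) for Mcl1 and -0.12 ± 0.048 (SE) for Pmaip1. Their unadjusted p-values were 0.0291 and 0.0368 and their adjusted p-values 0.386 and 0.416 by limma, so neither was called. In all, 0 of 9 members were called, where 0.131% of all genes were (25 genes), and 2 of 9 had an unadjusted p under 0.05, where 11% of all genes did. The SAM-type statistic called 210 genes and 0 members. No member was without overlap between the 2 groups, against 7.47% of all genes.

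The members' differences were not the same within the 2 array sets, and the cause was not tested. The sets were drawn from these same arrays, and the fit on set 2 was added after seeing the data, so its calls are a description only. In set 2, Xist exceeded 1 on MPP4 replicates 4 and 5 and on neither MPP3 array, so population and Xist signal were not balanced. Within array set 2 (2 MPP3 and 3 MPP4 arrays), limma called 2 of 9 members beside 7.79% of all genes: Mcl1 was higher in MPP4 by 0.406 (adjusted p 0.0420) and Bak1 lower, at -0.212 (adjusted p 0.0319). Within array set 1 (1 MPP3 and 2 MPP4 arrays), the same differences were -0.00773 and 0.00248, given as values only, since a single MPP3 array leaves no spread in that arm. Pmaip1 stood at -0.193 within set 2 (adjusted p 0.0951) and at -0.00201 within set 1. With array weights estimated by limma, Mcl1 alone was called, at 0.342 with an adjusted p of 0.0279, beside 9.44% of all genes.

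**Figure D3:**
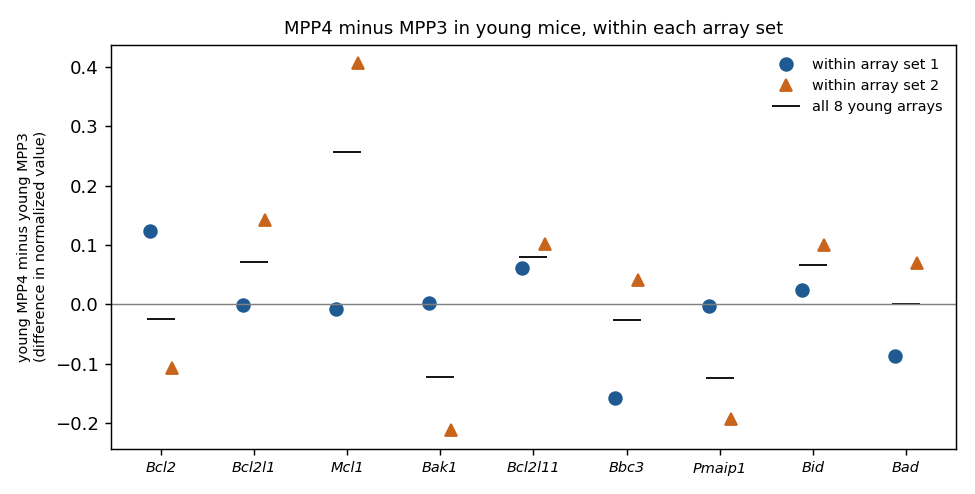
Young MPP4 minus young MPP3 in normalized value (vertical axis) for each measured member, within array set 1 (circles, 1 MPP3 and 2 MPP4 arrays), within array set 2 (triangles, 2 MPP3 and 3 MPP4 arrays) and over all 8 young arrays (dashes). Mcl1 stands at 0.406 within set 2 and at -0.00773 within set 1, and Bcl2, Bbc3 and Bad have opposite signs in the sets. So do Bcl2l1 (0.142 within set 2) and Bak1 (-0.212 within set 2), with set 1 values close to 0 (-0.000596 and 0.00248).

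Within young MPP4 itself, 7 of 9 members did not overlap between the 3 arrays of set 2 and the 2 of set 1, beside 48.9% of all genes. Of the members, 4 were higher in set 2 (21.4% of all genes were) and 3 lower (27.5% of all genes were). Those higher in set 2 were Bcl2l1 (by 0.341), Bad (by 0.255), Mcl1 (by 0.180) and Bcl2l11 (by 0.124). Those lower in set 2 were Bak1 (-0.288), Pmaip1 (-0.0908) and Bcl2 (-0.0852). For Bcl2l1, Bak1 and Bad these gaps between replicates of 1 group exceeded the difference in each of the 4 comparisons of groups. The sets were drawn from these same arrays, so the gaps are a description with no test. Lymphoid priming markers summed to 14.05 to 17.15 in young MPP4 and 12.92 to 14.37 in young MPP3, and myeloid markers to 11.4 to 12.6 and 16.7 to 24.1. Of 9 lymphoid priming genes, 6 had a higher mean in young MPP4 and 3 a lower one, 1 of them called lower (adjusted p 0.00075 by limma). B lineage markers went the other way, with 9 of 9 lower in young MPP4 (sums of 4.88 to 9.50 against 7.14 to 11.8). Of 9 T and NK cell markers, 7 were lower, 1 of them called (adjusted p 0.0178 by limma). The part of these markers in the members' values was not tested.

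Between the populations of old mice, all 6 arrays belonged to array set 1. Bcl2l11 was at 0.678 ± 0.061 (SD, n = 3) in MPP4 and 0.435 ± 0.13 (SD, n = 3) in MPP3, and Bcl2l1 at 0.859 ± 0.14 (SD, n = 3) and 1.09 ± 0.091 (SD, n = 3). Every old MPP4 array lay above every old MPP3 array for Bcl2l11 and below every one for Bcl2l1, and these 2 of 9 members compare with 16.6% of all genes without overlap. The difference was 0.24 ± 0.075 (SE, adjusted p 0.406 by limma) for Bcl2l11 and -0.23 ± 0.084 (SE, adjusted p 0.480 by limma) for Bcl2l1. No member was called (0 of 9, with 0% of all genes called), while these 2 had unadjusted p-values of 0.0213 and 0.0367, as 9.83% of all genes had under 0.05. The SAM-type statistic called 142 genes and 0 members.

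Leaving out each old array in turn kept Bcl2l11 between 0.180 and 0.311 and Bcl2l1 between -0.286 and -0.157. In young mice, Bcl2l11 differed between the populations by 0.079 ± 0.059 (SE) and Bcl2l1 by 0.072 ± 0.12 (SE). The myeloid markers summed to 12.6 to 13.7 in old MPP4 and 23.7 to 35.8 in old MPP3, with 15 of 15 lower in MPP4 by mean and none past the test. Their part in the members' values was not tested. Old MPP3 replicate 3 had the lowest Bcl2l11 (0.311) and the lowest myeloid sum of the 3 (23.7).

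The contrast of pro-survival with pro-death members was summarised on each array as the mean of the 3 pro-survival values minus the mean of the 6 pro-death values. For MPP3 it was 1.07 ± 0.029 (SD, n = 3) in the young and 1.04 ± 0.15 (SD, n = 3) in the old, and for MPP4 1.19 ± 0.079 (SD, n = 5) in the young and 1.08 ± 0.019 (SD, n = 3) in the old. Since the genes were chosen with results known, the contrast carries no test. The 5 young MPP4 arrays read 1.18, 1.07, 1.21, 1.24 and 1.27, the last 3 of them in array set 2. The old MPP4 arrays read 1.09, 1.09 and 1.05, below all 3 of these.

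In MPP3 the old minus young difference of the contrast was -0.0329, and its sign turned without 1 array. Old MPP3 replicate 2 read 0.865, against 1.10 and 1.15 on the other old arrays and 1.05 to 1.11 on the young ones, and without it the difference was 0.0544. With all arrays kept, the sign also turned on percentile ranks (0.354). Between old populations MPP4 minus MPP3 was 0.0371 with that array and -0.0503 without, and with all arrays it was -0.0213 on normal scores and -2.33 on percentile ranks. In MPP4 the old minus young difference was -0.118 and fell in size to -0.0469 with the set 1 arrays alone. Between young populations MPP4 minus MPP3 was 0.122, with 0.0648 within set 1 and 0.163 within set 2. Pro-survival means ran from 1.90 in old MPP3 to 2.03 in young MPP4 and pro-death means from 0.841 in young MPP4 to 0.865 in old MPP3. The units spread high ranks more widely, so these ranges are not set against each other.

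**Figure D4:**
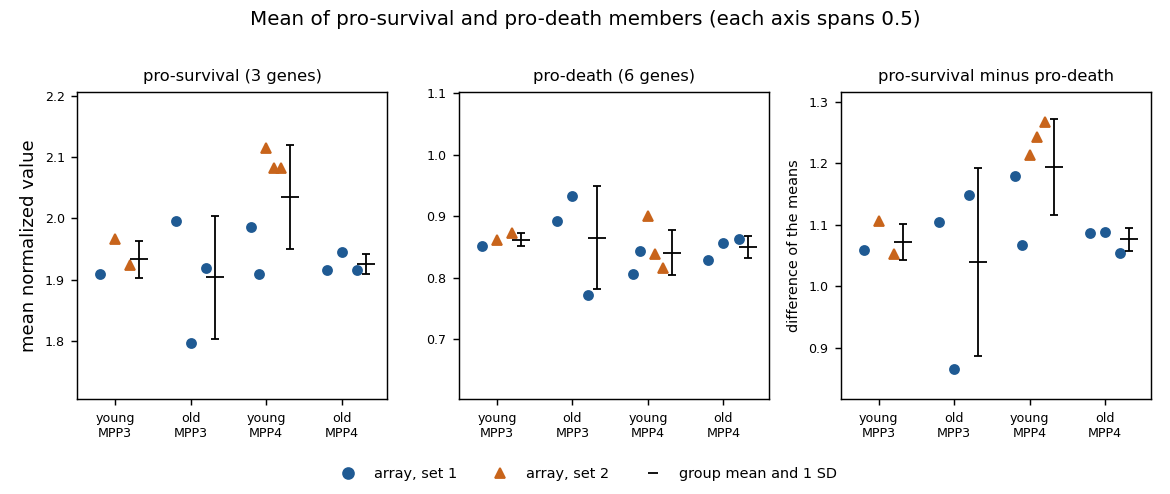
Mean normalized value of the 3 pro-survival members, of the 6 pro-death members, and the first minus the second (vertical axes, rank-based units), on each array by group, with the group mean and 1 SD; circles are arrays of array set 1 and triangles of array set 2. In the last panel the 3 set 2 arrays of young MPP4 lie highest (1.21 to 1.27) and old MPP3 replicate 2 lowest (0.865).

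Across the 14 arrays some members ran together and others against each other. The highest correlation in size was between Mcl1 and Bak1 (Pearson's r = -0.74), followed by Bcl2 with Bbc3 (r = -0.68) and Bcl2l1 with Bad (r = 0.67). Taken as deviations from the group means, the same pairs stood at -0.59, -0.68 and 0.60. These values describe 14 arrays that share groups and array sets, and carry no test. The genes whose values followed Mcl1 most closely over the 14 arrays were Tmem35b (r = 0.92), Wdr5 (r = 0.92), Slc25a4 (r = 0.91), Clk1 (r = 0.89) and Xpc (r = 0.88). WDR5 is a subunit of histone H3K4 methyltransferase complexes, Slc25a4 encodes a mitochondrial ADP/ATP carrier, CLK1 phosphorylates splicing factors and XPC recognises damaged DNA.

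The rest of the pathway was read from 6 lists of textbook genes, and no gene of any list was called by limma in any of the 5 comparisons. The wider BCL2 family (13 of 16 genes measured) had 7 of 13 genes with a higher mean in old MPP3 and 3 of 13 in old MPP4, with median differences of 0.018 and -0.013 where the medians over all genes were near 0. Bnip3, a hypoxia-induced mitophagy receptor, was at 1.61 ± 0.32 (SD, n = 5) in young MPP4, 1.14 ± 0.049 (SD, n = 3) in old MPP4 and 1.05 ± 0.14 (SD, n = 3) in young MPP3. Its difference was 0.57 between young populations (adjusted p 0.324 by limma) and -0.48 between old and young MPP4 (adjusted p 0.469 by limma). Bcl2l15 had the smallest p in the other comparisons, from 0.127 in young to 0.216 in old MPP3 (adjusted p 0.576 by limma). Its group means all lay well below the array medians of 0.662 to 0.675, so it ranked low in every group.

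Downstream of the mitochondrion, 17 of 19 genes of the apoptosome, the caspases and their inhibitors were measured. Of the 17, 7 had a higher mean in old MPP3 and 9 in old MPP4. Birc3, an inhibitor of apoptosis induced by NF-kB, had the smallest p between populations at both ages: it was at 1.70 ± 0.14 (SD, n = 5) in young MPP4 and 1.39 ± 0.14 (SD, n = 3) in young MPP3 (adjusted p 0.285 by limma). In old mice it was at 1.52 ± 0.034 (SD, n = 3) in MPP4 and 1.26 ± 0.032 (SD, n = 3) in MPP3 (adjusted p 0.203 by limma). Vdac1, a channel of the outer mitochondrial membrane, was at 2.52 in old and 2.20 in young MPP3 (adjusted p 0.513 by limma). Dffa, the inhibitor of the caspase-activated DNase, was at 1.25 in old and 1.36 in young MPP4 (adjusted p 0.447 by limma).

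In the death receptor pathway (12 of 13 measured), 8 of 12 genes had a higher mean in old MPP3 and 9 of 12 in old MPP4. Mlkl, the effector of necroptosis, had the smallest p in both: its mean was 1.81 in old against 1.59 in young MPP3 and 1.80 in old against 1.60 in young MPP4, with adjusted p-values of 0.511 and 0.458 by limma. Between young populations Tnfsf10, which encodes the death ligand TRAIL, was at 1.15 in MPP4 and 0.809 in MPP3 (adjusted p 0.158 by limma). Between old populations Cflar, which encodes the caspase-8 inhibitor c-FLIP, was at 1.65 in MPP4 and 1.46 in MPP3 (adjusted p 0.407 by limma).

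Among upstream regulators of the family's genes (16 of 17 measured), 14 of 16 had a lower mean in old than in young MPP3. Their median difference was -0.088, where that over all genes was near 0. In old MPP4, 12 of 16 had a lower mean, with a median difference of -0.018. Atf4, a stress-response factor, was at 1.86 in old and 2.17 in young MPP3 (adjusted p 0.585 by limma), and Ddit3, which encodes CHOP, at 1.88 in old and 2.11 in young MPP4 (adjusted p 0.403 by limma). Between populations, Stat5a, which carries cytokine survival signals, was at 1.90 in young MPP4 and 2.09 in young MPP3 (adjusted p 0.238 by limma). Myb, a progenitor transcription factor, was at 2.98 in old MPP4 and 3.17 in old MPP3 (adjusted p 0.365 by limma).

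Of the cytokine survival receptors (10 of 11 measured), 6 of 10 had a lower mean in old cells of each population. Il7r was at 0.509 in old and 0.882 in young MPP3 (adjusted p 0.618 by limma), Epor at 0.619 in old and 0.665 in young MPP4 (adjusted p 0.520 by limma), and Csf2rb at 0.922 in old MPP4 and 1.15 in old MPP3 (adjusted p 0.634 by limma). Kit was at 2.95 in young MPP4 and 3.07 in young MPP3 (adjusted p 0.326 by limma). Of the kinases and ubiquitin enzymes that act on BCL2 family proteins (15 of 18 measured), 8 of 15 had a lower mean in old MPP3 and 10 of 15 in old MPP4. Pim1 and Pim2, survival kinases that phosphorylate BAD, had the smallest p in old against young MPP3 (1.31 against 1.51, adjusted p 0.576 by limma) and MPP4 (0.566 against 0.673, adjusted p 0.458 by limma). Between populations, Ppp3ca, a calcineurin subunit, was at 2.31 in young MPP4 and 2.10 in young MPP3 (adjusted p 0.259 by limma), and Usp9x, a deubiquitinase of MCL1, at 2.37 in old MPP4 and 2.27 in old MPP3 (adjusted p 0.498 by limma).

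In the difference between the age differences, the smallest p of each list belonged to Bcl2l15 (-0.13), Dffa (-0.31), Fadd, the death receptor adaptor (0.42), Foxo1 (0.18), Il7r (0.59) and Ywhae, a 14-3-3 protein (-0.22), with adjusted p-values from 0.638 to 0.855 by limma.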

How the data were processed

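Labelled cDNA was hybridized to Affymetrix Mouse Gene ST 1.0 arrays after NuGEN amplification, which can shift the levels of rare RNAs. The deposited values are a score that the authors made with RMA and a quantile mapping of each array onto a standard exponential distribution. They were used as deposited. Of 22115 probe sets, 19236 had 1 gene symbol in the platform annotation. The probe set with the highest mean was kept for each gene, which left 19155 genes.

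The 2 ages were compared inside each population and the 2 populations at each age, using lmFit and eBayes of limma 3.58.1 (R 4.3.3) on the arrays of both groups. All 14 arrays gave the difference between the age differences. Tests were two-sided, p-values were adjusted by Benjamini-Hochberg across the 19155 genes, and calls needed an adjusted p under 0.05. The methods of the study used SAM, and a SAM-type statistic was an alternative. On simulated data of 19155 genes, the MPP3 age fit recovered 24.6% of changes of size 0.25 and 58.7% of size 0.5, the MPP4 age fit 49.3% and 75.9%, the fit of young populations 44.3% and 62.1% and that of old populations 44.8% and 54.0%. Each fit also made 7 to 12 false calls among the unaltered genes. The simulated noise was normal and independent for each gene and array, without array sets, series or Xist signal. The shares therefore need not hold for the measured arrays. They are over the altered genes as a whole, and recovery for the members was not tested. In the measured data, Bcl2l1 differed by -0.262 between old and young MPP4, with an adjusted p of 0.523 by limma. Mcl1 differed by 0.256 between young populations, with an adjusted p of 0.386 by limma. Precision is limited by how many arrays each group had.

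The members and lists were chosen with earlier results of these data known. All members were named in each comparison. From each pathway list, genes past the threshold were to be named, or else the gene with the smallest p. None of the pathway genes passed. Marker lists were given as counts and summed levels. Alternatives covered the dim genes, probe sets, moderation, array weights, scale, replicate number, array set, Xist signal and each array left out. Upstream sequences came from RefSeq tables (GRCm38.p6) by symbol and covered 9 of the 10 members. Windows on chromosome 18, where Pmaip1 lies, were not taken for the members. Figures were drawn with Python 3.11.15 and matplotlib 3.10.9.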

Additional observations from a re-analysis of the deposited data

Results flagged for a closer look

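In young MPP4, Bid stood apart on replicate 1, which at 0.588 lay far below the other 4 arrays (0.848 to 0.926): the gap was 76.8% of the group's whole range. It was the only such array among 10 tests in this group (9 members and the contrast of pro-survival with pro-death means). Chance gives about 1 in 20 for each single test, so 1 such array among 10 tests is not unusual. The tests were not independent, since the contrast contains Bid. The other groups held 3 arrays and were not tested.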

How the results depend on the processing

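No member was called in the age comparisons, between old populations or in the difference between age differences under any alternative that could be fitted. Between young populations, 1 was called with array weights and 2 with array set 2 alone, and these 3 were the only calls among 855 member values. The number of all genes called moved more. In old against young MPP3 it was 9 with 1 fit of all groups and 1 with array set 1 or with array set as a term, instead of 0. In MPP4 it was 21 with the SAM-type statistic, 304 with array weights and 1 with 1 fit of all groups, instead of 0, and 0 to 15 with 1 array left out. Between young populations it was 210 with the SAM-type statistic, 59 without the dimmest 33.3% of genes, 51 with every probe set or normal scores, 48 with a trended and robust fit, 1808 with array weights, 271 with array set as a term, 1492 with array set 2, and 0 with the replicate block, array set 1 (where 1 MPP3 array leaves little room for calls) or no arrays with Xist signal, instead of 25. With 1 array left out it was 8 to 108, the highest without young MPP3 replicate 1. Between old populations it was 142 with the SAM-type statistic, 1 without the dimmest 33.3% of genes, 27 with 1 fit of all groups and 2 with normal scores, instead of 0, and 0 to 3 with 1 array left out. For the difference between age differences it was 2 with a trended and robust fit and 574 with array weights, instead of 0, and 0 to 10 with 1 array left out. The causes were not tested.

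The old minus young contrast of pro-survival and pro-death means was -0.0878 to 0.0544 in MPP3 with 1 array left out, and 0.354 on percentile ranks. In MPP4 it was -0.118, with -0.0469 for array set 1 or array set as a term, -0.0639 without arrays with Xist signal, -0.0771 with the replicate block and 0.00970 with array set 1 and no arrays with Xist signal. Between young populations MPP4 minus MPP3 was 0.122, with 0.0648 for array set 1, 0.0612 without arrays with Xist signal and 0.0812 with the replicate block. Between old populations it was -0.0213 on normal scores, -2.33 on percentile ranks and -0.0503 to 0.0919 with 1 array left out, and for the difference between age differences, -0.0850 with all arrays, it was -0.172 to -0.0301 with 1 array left out, -0.0277 for array set 1, -0.0241 without arrays with Xist signal and -0.0441 with the replicate block. The replicate numbers were not shown to pair the arrays (correlations of deviations from -0.192 to 0.407), and the block called 0 members in each comparison. The fits on array set 2 alone, and on array set 1 without arrays with Xist signal, were added after seeing the data. Fits with array set 2 could be made only between young populations, and the second kind was run only for old against young MPP4. Each member had 1 probe set, so no other probe set could be tried.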
